A study of Sus scrofa with 3 samples.

Results

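The growth factor ligands FGF2 and FGF7 and the receptor tyrosine kinases FGFR2, EGFR, MET, KIT and PDGFRA were followed through 3 stages of molar development in the miniature pig. Members were all probe sets that carry 1 of these 7 gene symbols in the probe-to-gene table of the array platform. The rule found 9 probe sets among 23999 and covered 6 of the 7 genes, out of 6790 symbols in all. FGF2, FGF7 and EGFR had 2 probe sets each, and FGFR2, MET and KIT had 1 each. No probe set carries the symbol PDGFRA in that table. A single probe set that a supplementary table of the study calls PDGFRA is described separately below and enters no count of members.

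The animals were Wuzhishan miniature pigs, for which the labels give no mutation and no treatment. The last deciduous molar germs of the mandible, with their dental lamina, were taken at E40 (cap stage, before a secondary dental lamina is present), at E50 (bell stage, when that lamina starts to form) and at E60 (given as the secretory stage in the labels). Germs of 1 litter were pooled at each stage, and every pool went onto a single Affymetrix Porcine Genome Array, which gives 3 arrays and no replicates. No p-value, SD or SE can therefore be given, and stage, litter and array cannot be told apart. Values are MAS 5.0 signals, which summarise the brightness of the probes of a probe set, scaled by the authors to the same trimmed mean on each array and deposited as log2 values. The 25th percentile of each array served as its floor (29.3 at E40, 17.2 at E50 and 21.8 at E60), and dimmer signals, too weak to be ordered, were set to it. Probe sets whose signals in a pair of stages differed by over 2-fold were called. Where 1 of both signals was under the floor, the fold only bounds the difference ("at least"), and where both were, none was formed.

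Receptor tyrosine kinases are membrane proteins that pair up when their ligand binds, phosphorylate each other inside the cell, and pass the signal on through the RAS-MAPK and PI3K-AKT routes. In developing teeth, as in other organs that form from an epithelium and its mesenchyme, such ligands carry signals between both tissues. FGF7 is made by mesenchymal cells and acts on epithelium through the IIIb form of FGFR2, and mouse embryos that lack this form do not develop teeth beyond the bud. KIT is best known from mast cells, melanocytes and germ cells, and PDGFRA from mesenchyme, the dental mesenchyme of the mouse included.

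FGF2 is the member for which the study also designed a quantitative RT-PCR assay on the same RNA. Its primers are shown because they define the second assay of this transcript. The RT-PCR measurements themselves were not analysed here. The forward and reverse primers each hold 19 bases, with 7 and 8 bases of G or C, and run 5′ to 3′, with no base marked by capitals.
FGF2 forward primer: actacaacttcaagcagaa
FGF2 reverse primer: ttccatcttccttcatagc

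FGF2, a fibroblast growth factor that is stored on heparan sulphate in the matrix and binds several FGF receptors, was lower at E50 than at E40. Its brightest probe set (Ssc.17772.1.A1_at) had a signal of 77.4 at E40, 22.1 at E50 and 8.6 at E60. The E60 signal lay under the floor of its array, and the E50 signal stood close above its own. FGF2 was called lower at E50 versus E40, 3.51-fold, and lower at E60 versus E40, at least 3.55-fold. At E60 versus E50 the bound is only at least 1.01-fold, because the E50 signal was already near the floor. Its other probe set, built from the same accession, had signals of 17.7, 1.0 and 8.2 at E40, E50 and E60, all under the floor, so it neither adds to nor takes from the call. After quantile normalization the log2 fold at E50 versus E40 was -1.14, in place of -1.81, and was still called lower. With a floor at the 50th percentile no pair was called, and averaging its probe sets ended the call at E60 versus E40 (log2 fold -0.76).

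FGF7, also named keratinocyte growth factor, was dim at every stage. Its brighter probe set (Ssc.15923.1.S1_at) had a signal of 29.6 at E40, 22.3 at E50 and 37.7 at E60, at E40 and E50 close above the floor. No pair of stages was called: the signal was 1.33-fold lower at E50 than at E40, 1.69-fold higher at E60 than at E50 and 1.27-fold higher at E60 than at E40. The first of these differences changed sign with the scaling, since its log2 fold was -0.41 as deposited and 0.33 after quantile normalization. The other probe set of FGF7 had signals of 13.4, 16.9 and 3.8 at E40, E50 and E60, all under the floor, so their order cannot be read.

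FGFR2, a receptor for FGF7 and other fibroblast growth factors, was measured by 1 probe set (Ssc.16346.1.S1_at) with a signal of 1524 at E40, 883.0 at E50 and 943.6 at E60. These signals lay at percentiles 89.4, 81.2 and 82.4 of their arrays. FGFR2 was highest at E40, and the E50 and E60 signals differed by 1.07-fold, a difference whose sign turned with the scaling. The difference at E50 versus E40 was 1.73-fold and that at E60 versus E40 was 1.61-fold, both toward the lower side and within the 2-fold limit. Which splice form of FGFR2 the probe set reads is not given in the sources used here. FGFR1, which binds FGF2 among others, had 2382 at E40, 2660 at E50 and 3854 at E60, so it was highest at E60, 1.45-fold above E50 and 1.62-fold above E40. Neither receptor was called in any pair on its brightest probe set, though the second probe set of FGFR1 was higher by over 2-fold at E60 versus E40.

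EGFR, the receptor of epidermal growth factor and its relatives, was the member for which both probe sets could be read at every stage. The brighter (Ssc.12121.1.S1_at) had a signal of 4157 at E40, 3199 at E50 and 2584 at E60. The other (Ssc.55.1.S1_at) had 486.3 at E40, 383.8 at E50 and 340.3 at E60. Both were lower at each later stage, and E60 stood 1.61-fold below E40 on the first and 1.43-fold below it on the second, within the 2-fold limit. With the arrays scaled to equal medians the first step of the brighter set was 0.01 on the log2 scale, in place of -0.38, whereas the E60 versus E40 difference stayed below 0 in the settings tried, between -0.81 and -0.38.

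Of the genes that act on EGFR, EGF, HBEGF and LRIG1 were called and TGFA was not. EGF itself had 99.9 at E40, 44.6 at E50 and 115.7 at E60, so it was called lower at E50 versus E40 (2.24-fold) and higher at E60 versus E50 (2.59-fold). With equal medians the first of these calls was not made. HBEGF, a membrane-anchored ligand, had 50.7 at E40, 6.9 at E50 and 42.9 at E60, at least 2.94-fold lower at the first step and at least 2.49-fold higher at the second. TGFA, another ligand, stayed within the limit with 140.5, 127.4 and 121.1 at E40, E50 and E60, and AREG was under the floor on all 3 arrays. LRIG1, a membrane protein that promotes the breakdown of EGFR and related receptors, had 966.6 at E40, 134.9 at E50 and 71.2 at E60. It was 7.17-fold lower at E50 than at E40 and 13.6-fold lower at E60 than at E40, while EGFR was within 2-fold of its E40 level in both comparisons. ERBB2 and ERBB3 had no probe set under those symbols.

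MET, the receptor of hepatocyte growth factor on epithelial cells, stayed within 2-fold in every pair and, as deposited, had the smallest range among the member genes that could be read on all arrays. With equal medians its log2 fold at E50 versus E40 was 0.67, beside -0.40 for FGFR2 and 0.01 for EGFR, so that ranking depends on the scaling. Its probe set (Ssc.9275.1.A1_at) had a signal of 606.4 at E40, 738.5 at E50 and 565.5 at E60. MET was thus highest at E50, 1.22-fold above E40 and 1.31-fold above E60. The E40 and E60 signals differed by 1.07-fold, a difference whose sign turned with the scaling. The platform table ties this probe set to 2 gene IDs of the same symbol, of which 1 is in the reference gene table. HGF, its ligand, had no probe set under that symbol. HGFAC, a protease that activates the HGF precursor, had 66.9 at E40, 28.9 at E50 and 2.1 at E60, 2.32-fold lower at E50 than at E40 and at least 3.07-fold lower at E60 than at E40.

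KIT, the receptor of stem cell factor, differed most among the members between E50 and the stages on either side. Its single probe set (Ssc.16096.2.S1_a_at) had a signal of 216.8 at E40, 49.9 at E50 and 134.3 at E60, each above the floor. KIT was called lower at E50 versus E40, 4.35-fold, and higher at E60 versus E50, 2.69-fold. At E60 it remained 1.61-fold below E40, within the limit. Both calls rest on the same E50 array, and a low value on that array alone would give both. With a floor at the 50th percentile in place of the 25th neither call was made, as the E50 signal then lies under the floor (log2 folds -0.79 and 0.10). The suffix of the probe set marks probes that match several transcripts, and no second probe set of KIT was there to set beside it. KITLG, which encodes stem cell factor, had 39.1 at E40, 22.4 at E50 and 23.8 at E60, 1.74-fold lower at E50 than at E40 and not called.

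PDGFRA could be described only through the probe set that the study names (Ssc.13288.1.A1_at). Its signal was 57.9 at E40, 28.1 at E50 and 45.5 at E60, so it was 2.06-fold lower at E50 than at E40, just past the limit, and 1.62-fold higher at E60 than at E50. With arrays scaled to equal medians the log2 fold at E50 versus E40 was -0.65, in place of -1.04, and with housekeeping scaling it was -0.92, and neither passes the limit. The signals lay at percentiles 34.6, 31.5 and 35.3 of their arrays. Among protein-coding genes of the Sscrofa11.1 assembly, PDGFRA, KIT and the VEGF receptor gene KDR stand next to each other in that order. KDR was under the floor on all 3 arrays on its brightest probe set, with 1.3, 2.7 and 18.7 at E40, E50 and E60. PDGFRB, the second PDGF receptor, had 2836 at E40, 1758 at E50 and 1866 at E60, 1.61-fold lower at E50 than at E40 and not called. Its second, dimmer probe set went the other way, over 2-fold higher at E50 versus E40 and over 2-fold lower at E60 versus E50. That set gave no fold at E60 versus E40, so its signal lay under the floor at E40, at E60 or at both. At least 1 of its folds is therefore only a bound. With probe sets that differ, PDGFRB has no settled direction here. PDGFA, PDGFB and PDGFC had no probe set under those symbols.

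**Figure D1:**
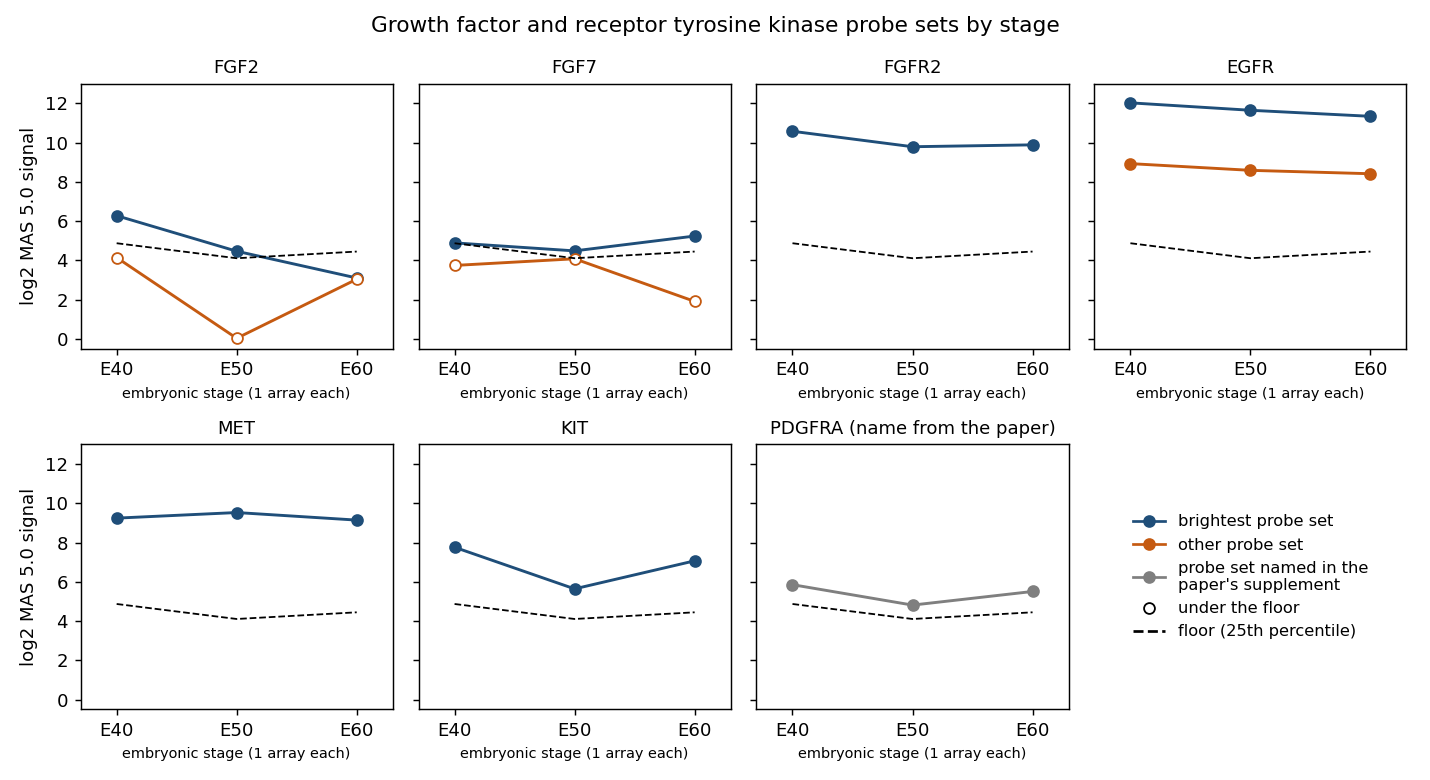
Log2 MAS 5.0 signals (vertical axis) of each probe set by stage (horizontal axis, 1 array for each stage), 1 panel per gene. Open circles lie under the dashed floor, the 25th percentile of the array. KIT has 49.9 at E50, against 216.8 at E40, both EGFR probe sets are lower at each later stage, and the second probe sets of FGF2 and FGF7 lie under the floor throughout.

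Counted by gene on the brightest probe set, 2 of 6 member genes (FGF2 and KIT) were lower by over 2-fold at E50 versus E40 and 0 were higher, and the median log2 fold of the members was -0.60. Over all 6091 symbols with a fold in this pair, 8.14% were lower and 2.77% higher, with a median log2 fold of 0.06. By probe set, 2 of the 7 members with a fold were lower, against 15.6% of all probe sets. Dim probe sets were called lower more often than bright ones, 2.7% in the brightest quartile of the mean log2 signal over the 3 arrays. FGF2, KIT and FGF7 lie in quartile 2, counted from the dimmest, where 30.0% of the probe sets with a fold were lower at E50 versus E40, and 2 of these 3 members were. The other 4 members with a fold lie in brighter quartiles, and 0 of them were called.

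At E60 versus E50, 1 of 6 member genes (KIT) was higher and 0 lower, with a median log2 fold of 0.04. Of 6141 symbols, 4.43% were higher and 1.76% lower, with a median of -0.04. The share of higher probe sets was 6.37% over all and 12.4% in the quartile of KIT. At E60 versus E40, 1 of 6 member genes (FGF2) was lower and 0 higher, with a median of -0.69. Of 6146 symbols, 7.32% were lower and 4.51% higher, with a median of 0.00. The share of lower probe sets was 12.6% over all and 23.6% in the quartile of FGF2. In both pairs a single gene makes up the count, so its share of the members says little beside these values.

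The spread between probe sets of the same gene gives the only scale of precision inside the table. In genes with exactly 2 probe sets above the floor, the log2 folds of the pair differed by a median of 0.34 between E50 and E40 (1195 genes), with a 90th percentile of 1.13. Between E60 and E50 the median was 0.33 and the 90th percentile 0.97 (1203 genes), and between E60 and E40 they were 0.38 and 1.09 (1202 genes). Such a spread mixes probe effects with noise and leaves out the difference between litters. The log2 folds of FGF2 (-1.81) and KIT (-2.12) at E50 versus E40 and of KIT (1.43) at E60 versus E50 were past those 90th percentiles. All other folds of the members with both signals above the floor, and those of the PDGFRA probe set, were smaller than them. For genes whose dimmer probe set lay in the lower part of the signals, the 90th percentile was 1.45 between E50 and E40. Between E60 and E50 it was 1.13. As deposited, the folds of FGF2 and KIT named above were past these too. With equal medians (-1.42) or quantile normalization (-1.14) the log2 fold of FGF2 at E50 versus E40 was smaller in size than 1.45. Among genes whose dimmer probe set lay in the upper part of the signals the 90th percentile between E50 and E40 was 0.78. As deposited, the log2 fold of FGFR2 (-0.79) was just past it. With equal medians (-0.40) or housekeeping scaling (-0.66) it was smaller in size than 0.78, and with quantile normalization (-0.83) it was larger. The order of E50 and E60 for FGFR2 and EGFR, of E40 and E60 for FGF7 and MET, and of E40 and E50 for MET rests on differences below the median spread.

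**Figure D2:**
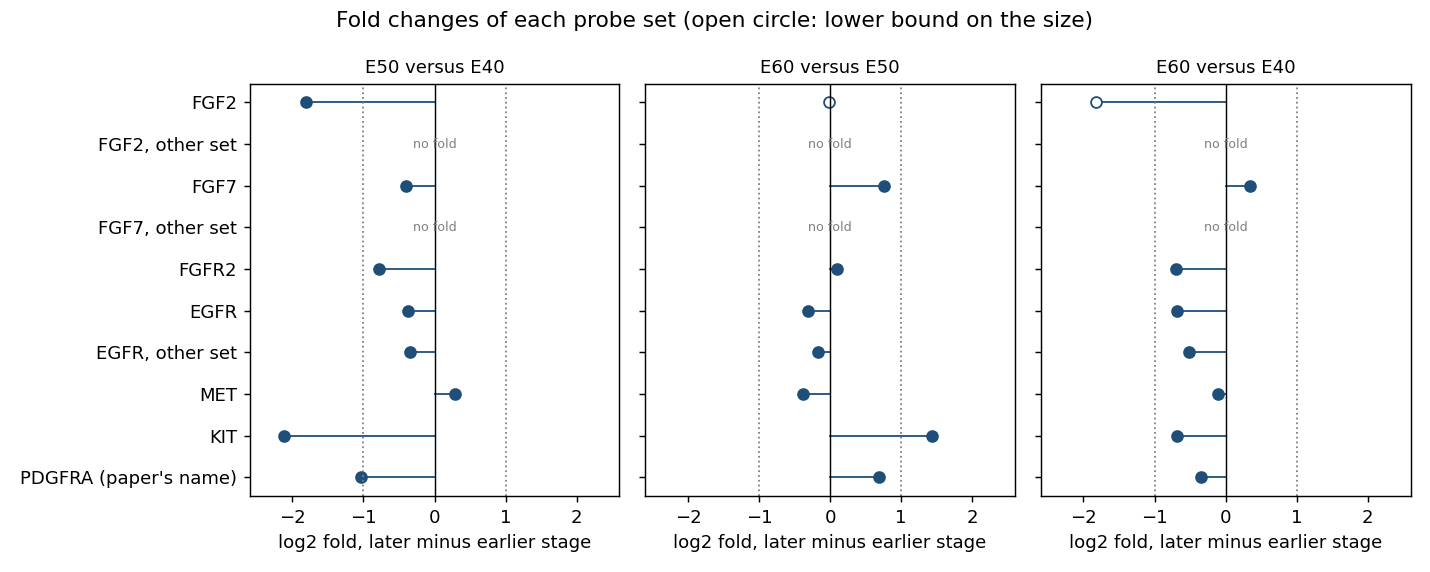
Log2 fold (horizontal axis, later minus earlier stage) of each probe set in the 3 pairs of stages. Open circles are lower bounds on the size, dotted lines mark the 2-fold limit, and "no fold" stands where both signals lay under the floor. Outside the dotted lines lie FGF2, KIT and, by a small margin, the PDGFRA probe set at E50 versus E40, KIT at E60 versus E50, and FGF2 at E60 versus E40.

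The rest of the signalling route was read through 11 lists of ligands, receptors, signal relay proteins, inhibitors and response genes. Without the members they name 175 genes, of which 58 have a probe set. At E50 versus E40, 9 of the 53 genes with a fold were lower and 0 higher, with a median log2 fold of -0.14, beside 8.14% lower and 2.77% higher over all symbols. The lower genes were FGF18, GPC3, EGF, HBEGF, LRIG1, HGFAC, TEK, TIE1 and EGR1. At E60 versus E50, 5 of 52 were higher (GPC3, EGF, HBEGF, TEK and EGR1) and 0 lower, with a median of -0.02, beside 4.43% higher and 1.76% lower over all symbols. These comparisons share the E50 array. At E60 versus E40, 1 of 53 was higher (TYRO3) and 6 were lower (FGF18, LRIG1, HGFAC, TIE1, CBLB and MYC), with a median of -0.12, beside 4.51% higher and 7.32% lower over all symbols. These splits moved with the scaling, in a check chosen after the data had been seen. With equal medians, 5 genes were lower (FGF18, GPC3, HBEGF, LRIG1 and TIE1) and 5 higher (TYRO3, MAPK3, DUSP6, JUN and IER3) at E50 versus E40. EGF, HGFAC, TEK and EGR1 were then no longer called lower in that pair. At E60 versus E50, 5 were then higher and 1 lower, and at E60 versus E40, 3 were higher and 4 lower. With housekeeping scaling the counts of higher and lower genes were 2 and 9 at E50 versus E40, 5 and 2 at E60 versus E50, and 0 and 6 at E60 versus E40.

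Among ligands of the FGF family other than the members, FGF18, which acts in bone and cartilage, had 87.3 at E40, 7.9 at E50 and 5.5 at E60, at least 5.07-fold lower at E50 than at E40. FGF9, which dental epithelium makes in the mouse, had 138.9 at E40, 190.9 at E50 and 130.9 at E60 and was not called. FGF1 was under the floor on all 3 arrays, and FGF10 had no probe set under that symbol. GPC3, a heparan sulphate proteoglycan named after its values had been seen, had 74.3 at E40, 10.6 at E50 and 59.2 at E60, at least 4.31-fold lower and then at least 3.43-fold higher.

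Receptors of blood vessels were among the called kinases. TEK, the angiopoietin receptor, had 210.0 at E40, 81.7 at E50 and 226.6 at E60, 2.57-fold lower and then 2.77-fold higher. TIE1, its partner, had 206.2, 77.2 and 100.4 at E40, E50 and E60, 2.67-fold lower at the first step. TYRO3, a kinase of the TAM family, had 389.3, 640.9 and 780.9 at E40, E50 and E60, and E60 was 2.01-fold above E40.

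Downstream of the receptors, all 14 measured genes of the RAS-MAPK and PI3K relay were within 2-fold in all 3 pairs as deposited, read on their brightest probe sets. Over all symbols 10.9% were called in either direction at E50 versus E40, 6.19% at E60 versus E50 and 11.8% at E60 versus E40, so few calls among 14 genes would be usual. With equal medians MAPK3 passed the limit at E50 versus E40. As deposited, 1 dimmer probe set of STAT5A was lower at E60 versus E50, and another was higher at E60 versus E40. AKT1, a kinase of the PI3K route, had 1901 at E40, 2429 at E50 and 2340 at E60, and GRB2, the adaptor that links receptors to RAS, had 1144, 1333 and 1413. DUSP6, a phosphatase that FGF signalling induces and that switches off ERK, had 3099 at E40, 5828 at E50 and 4047 at E60, so it was highest at E50, 1.88-fold above E40, and its second probe set was past the limit there. CBLB, a ubiquitin ligase that helps remove receptors from the membrane, had 875.4, 521.7 and 268.3 at E40, E50 and E60, and was called lower at E60 versus E40 (3.26-fold). EGR1, an immediate early gene of growth factor stimulation, had 130.4, 53.2 and 150.7, 2.45-fold lower at E50 than at E40 and 2.83-fold higher at E60 than at E50, calls shared by 1 of its other probe sets and not by the remaining one. MYC had 957.9, 597.5 and 426.2, and was called lower at E60 versus E40 (2.25-fold). ETV5, a transcription factor induced by FGF signalling, had 497.7, 573.8 and 525.7 and was not called.

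**Figure D3:**
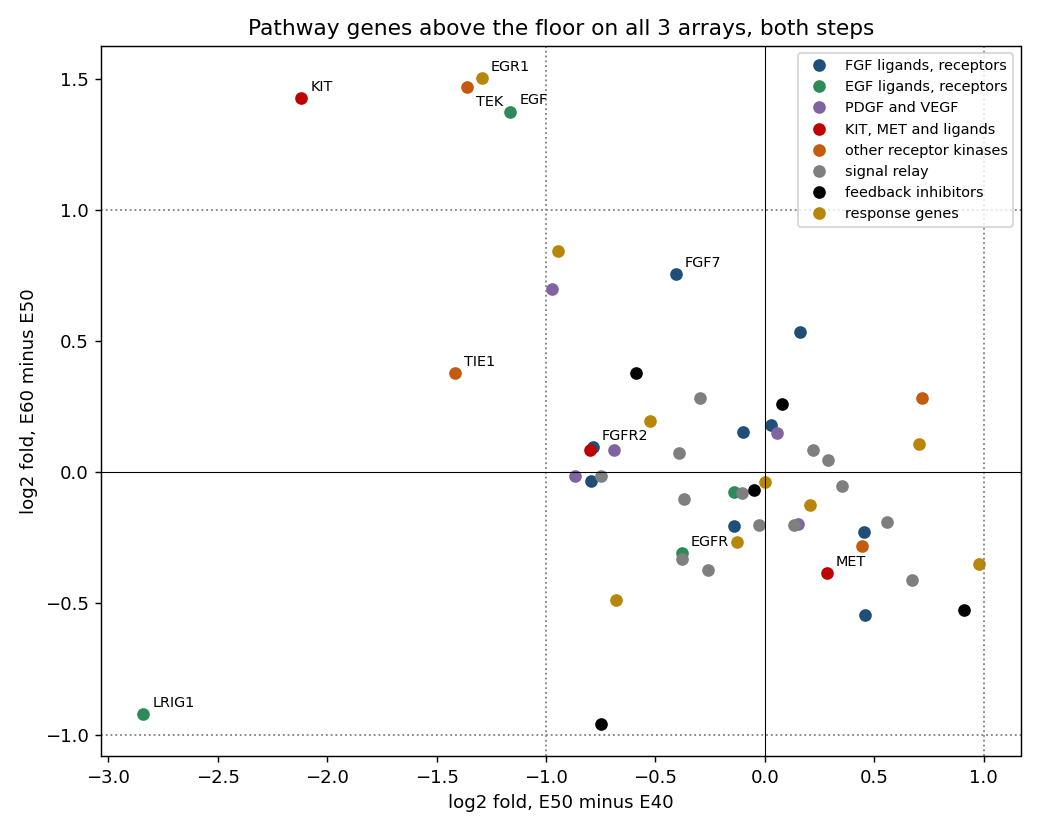
Log2 fold at E50 minus E40 (horizontal axis) and at E60 minus E50 (vertical axis) of the 53 genes of the pathway lists, members included, that lay above the floor on all 3 arrays. Dotted lines mark the 2-fold limit, and both axes hold the E50 array, which sets points with a low E50 signal at the upper left. KIT stands there with EGF, TEK and EGR1, LRIG1 stands at the lower left, and the signal relay genes lie within the limits.

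The pools also differed in markers of other tissues. The skeletal muscle list (17 genes with a probe set) had a summed signal of 43629 at E40, 1042 at E50 and 3806 at E60, and all 17 were lower at E50 than at E40. Most of the E60 sum came from MYL1, with 7116 at E40, 481.2 at E50 and 3266 at E60. The keratinised epithelium list (5 genes) had 10738, 3684 and 4147. In it IVL, CST6 and FABP5 were lower at E50 than at E40. KRT10 had 1321 at E40, 1714 at E50 and 2276 at E60, and KRT1 was under the floor on all arrays. The E40 array, with the most muscle and keratinised epithelium signal, was also the one on which FGF2, KIT and LRIG1 were highest. FGFR2, EGFR, the PDGFRA probe set, CBLB and MYC, among others, were highest there as well. The part of those tissues in any of these values was not tested. The tooth germ itself was marked at every stage: the dental and oral epithelium list (8 genes) had 22791 at E40, 31463 at E50 and 27490 at E60, and the dental mesenchyme list (10 genes) had 55956, 51902 and 56776. Within the mesenchyme list 4 of 10 genes, beside 8.14% of all symbols, were lower by over 2-fold at E50 than at E40: MSX1, COL1A2, PRRX1 and POSTN. So was the PDGFRA probe set, and the part of mesenchyme in its value was not tested. The other 6 were within the limit, and did not share a direction: DLX5 had 2399 at E40, 4702 at E50 and 3549 at E60, THY1 had 5439, 7953 and 6287, and VIM had 19634, 18933 and 20460. KRT5, KRT14 and SHH had no probe set under those symbols. In pooled tissue, fewer cells of a type and less RNA per cell cannot be told apart.

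The summed signal of the endothelial list (10 genes) was 3779 at E40, 2256 at E50 and 3227 at E60, the order of stages that KIT had. The muscle and keratinised epithelium sums had that order too, as did the median signal of the arrays (163.5, 125.0 and 132.0). In the keratinised list the higher E60 sum came mostly from KRT10 (1714 at E50 and 2276 at E60), which was lowest at E40. CST6 (109.1 and 32.4) and FABP5 (1839 and 1806) were lower at E60 than at E50, so the genes of that list did not share the order of its sum. A low E50 sum was not particular to these lists. The macrophage (1186, 1045 and 1485) and erythroid (2367, 1987 and 2628) sums were lowest at E50 and highest at E60. The Schwann and nerve sum (725.7, 1442 and 2012) was lowest at E40. At E50 versus E40 the median log2 fold was -0.55 in the endothelial list, -0.55 in the melanocyte list and -0.74 in the macrophage list. The melanocyte sums at E50 and E60 were nearly equal, and single melanocyte genes did not share an order. Single endothelial genes differed, with TEK, VWF and CLDN5 highest at E60 and ENG at E50. In this list 3 of 9 genes with a fold (CDH5, TEK and TIE1) were lower at E50 than at E40, beside 8.14% of all symbols. The second probe set of CDH5 was within the limit, and the other probe sets of TEK gave no fold. Markers of mast cells and melanocytes, in which KIT is best known, were mostly dim. Of the mast cell markers other than KIT, only MS4A2 and GATA2 have a probe set, and MS4A2, a subunit of the IgE receptor, was under the floor on all arrays. GATA2, which endothelial cells also express, had 131.1 at E40, 113.8 at E50 and 71.1 at E60. The melanocyte list (6 genes) had 388.2 at E40, 281.8 at E50 and 282.6 at E60, with 0 of 4 genes called lower at E50 versus E40 and TYRP1, a pigment enzyme, under the floor throughout. The part of any of these cells in the KIT signal was not tested.

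**Figure D4:**
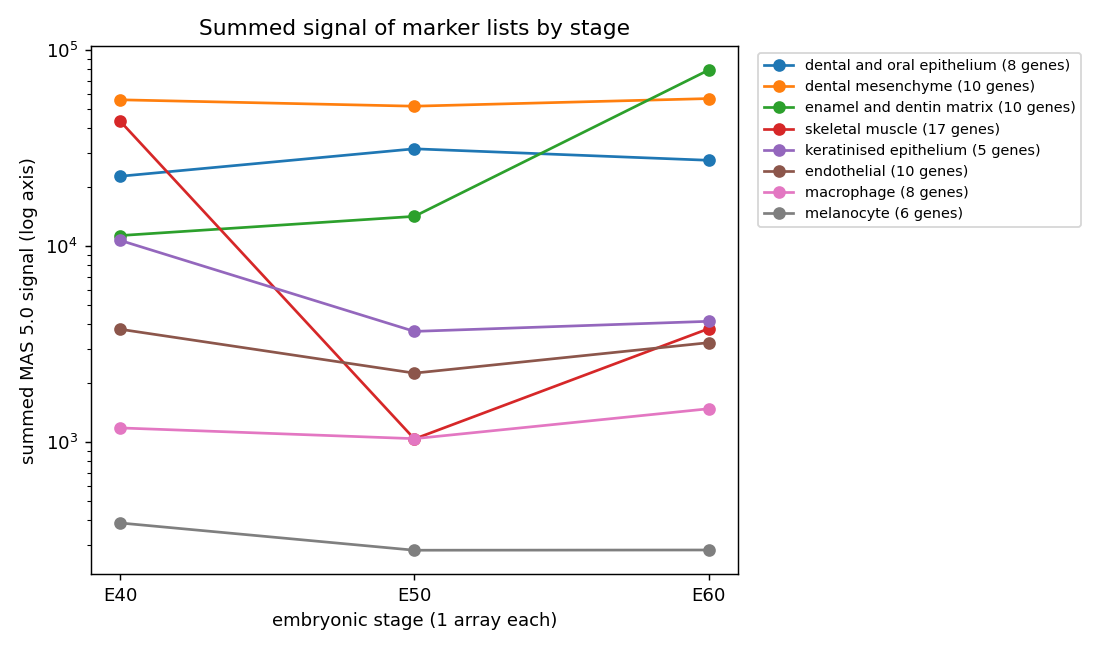
Summed MAS 5.0 signal (vertical log axis) of the genes of 8 marker lists by stage (horizontal axis, 1 array for each stage). The skeletal muscle list has 1042 at E50, against 43629 at E40. The endothelial and macrophage sums, among others, are lowest at E50, and the dental epithelium and mesenchyme sums stay within 2-fold. Bright genes weigh most in such sums, as PECAM1 and CDH5 do in the endothelial list and VIM in the mesenchyme list, and single genes can differ from them.

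For each member above the floor on all 3 arrays, the symbols with the most similar pair of step changes were sought among 5765 symbols by Euclidean distance on the log2 scale. With 3 arrays such likeness is weak, and members with small changes have many near neighbours: 2500 symbols lay within a distance of 0.5 of MET and 1468 of EGFR, but 13 of KIT. Nearest to KIT were CARTPT (115.2 at E40, 25.4 at E50 and 59.8 at E60; distance 0.20) and LRRC28 (distance 0.25). Nearest to FGFR2 were RIC8B and KITLG (0.02 each). B4GALT5 and DCHS1 stood nearest to EGFR, CDR2L and ARL6IP1 nearest to MET, and PC and LRRC57 nearest to FGF7, each at a distance of 0.03 or less. Among the members themselves, FGFR2 and EGFR were closest (0.57) and KIT and MET farthest apart (3.01).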

How the data were processed

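RNA of pooled molar germs was measured on 1 GeneChip Porcine Genome Array for each of 3 stages. The authors computed MAS 5.0 signals in GeneSpring and deposited their log2 values. Detection calls were not used here. The 24123 deposited probe sets include 124 array controls, which were left out. After trimming 2% at either end, mean signal was 500.1 on all arrays. No further normalization was applied. The median signal was 163.5 at E40, 125.0 at E50 and 132.0 at E60. The number of arrays limits the precision.

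Symbols came from the platform table, where 10110 probe sets carry 1 distinct symbol, 157 several and 13732 none. The RefSeq gene table matched 10002 of the first by gene ID and changed 0 symbols. Each gene was read on its brightest probe set by mean log2 signal. Signals under the 25th percentile of their array were raised to it, and folds over 2 were called. Step changes were compared by Euclidean distance. The scripts (Python 3.11.15, NumPy 2.4.6, pandas 2.3.3) were tested on simulated data. The members, gene lists, floor and threshold were chosen with earlier results of these data known, and no test was possible with 1 array per stage. Named genes were all members, the ligands and receptors that pair with them, up to 4 called genes of each list with both signals above the floor, and the 2 nearest symbols of a member. GPC3, KDR, AKT1, GRB2, DUSP6, ETV5 and the marker genes were named after their values had been seen. Alternatives changed the floor, the scaling, the threshold or the choice of probe set.

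Levels of different probe sets depend on their probes and were not set against each other. The sums of marker lists do add them, so bright probe sets weigh most there. Protein and promoter sequences were not used here.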

Additional observations from a re-analysis of the deposited data

How the results depend on the processing

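The calls of member genes kept within 1.5-fold of their number in 22 of 30 recounts. The count at E50 versus E40, 2 as reported, was 0 with a floor at the 50th percentile, under which both FGF2 and KIT then lie at E50. It was 1 without suffixed probe sets such as that of KIT, whose suffix marks probes that match several transcripts, since KIT has no other. The count at E60 versus E50, 1 as reported, was 0 with the floor at the 50th percentile, 0 with a 3-fold threshold, 0 without the suffixed probe sets, and 2 with no floor, where FGF2 was lower as well. The count at E60 versus E40, 1 as reported, was 0 with the floor at the 50th percentile and 0 when the probe sets of each gene were averaged. A common floor, housekeeping scaling, quantile normalization and equal medians left the 3 counts and the genes called as they were. Counting the PDGFRA probe set as a member, an alternative chosen after the data had been seen, gave 3 at E50 versus E40 and left the other counts as they were. Of 166 recomputed log2 folds of single members, 9 moved by over 1.5-fold or changed their call. Recomputations that gave no fold are not among the 166, so some lost calls are left out. These are FGF2 with a floor at the 50th percentile and KIT without suffixed probe sets. The 3-fold threshold and the added PDGFRA probe set cannot move a fold of a member, so the 9 of 166 is no measure of stability. The median log2 difference of all probe sets at E50 versus E40 was -0.15 as deposited, 0.24 with equal medians, 0.09 after quantile normalization and -0.02 with housekeeping scaling. No called fold changed sign. No paired analysis was possible because each stage has 1 array. FGF7 at E40 and E50 and FGF2 at E50 lie near the floor, and FGF2 at E60 lies under it, which limits what can be read from both ligands. FGF2 at E40 (77.4, with a floor of 29.3) lies clear of it.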
